A study of Homo sapiens with 18 samples.

Results

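Small nucleolar RNAs and small Cajal body RNAs were followed in BE(2)-m17 cells, a human neuroblastoma line, with and without overexpression of ABCC1, an ATP-binding cassette exporter. Of the 57905 Ensembl features counted in each library, 493 carried a symbol beginning with SNORA, SNORD or SCARNA and a number, and 200 of these had a summed count of at least 100 over 12 total RNA libraries. The 200 members comprised 110 SNORD, 73 SNORA and 17 SCARNA genes. The members were chosen by their counts in those 12 libraries, so their levels there are given as a description. The members closest to the minimum were SNORD116-11 with 100 counts, SNORD38A with 101 and SNORD73B with 103. The nearest rows left out were copies of SNORA70 with 98 counts, SNORD62 with 96 and SNORA80C with 96.

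Every culture carried pSBbi-Hyg-APP, a transposon vector that expresses APP, the amyloid precursor protein. The control cells, called Puro, also carried the empty vector pSBbi-Pur, and the ABCC1(WT) cells carried pSBbi-Pur-ABCC1 with a codon-optimized ABCC1. These were stably transfected pools. Stock lines had been selected with hygromycin and puromycin, and the cultures for RNA were plated without either, in successive weeks, and lysed on day 4. There were 3 experiments, named RNA1, RNA2 and RNA3 in the labels, each with 3 Puro and 3 ABCC1(WT) libraries, 18 in all. A total RNA kit gave the RNA2 and RNA3 libraries. For RNA1 the paper names a TruSeq RNA kit, taken here to select polyadenylated mRNA. The labels do not say which of RNA2 and RNA3 held cryopreserved and which newly transfected cells. The labels do not say which replicate number belongs to which week, and p-values measure the spread between these libraries.

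Most small nucleolar RNAs are cut out of introns and stay in the nucleus as RNA-protein particles. SNORD RNAs, the box C/D class, include guides for 2′-O-methylation of ribosomal RNA. SNORA RNAs, the box H/ACA class, include guides for the change of uridine to pseudouridine. SCARNAs act in Cajal bodies on the small nuclear RNAs of the spliceosome. A few members, among them SNORD3A (U3) and SNORA73B (U17), serve in the cutting of the ribosomal RNA precursor rather than as modification guides.

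The sequences of 1 abundant member of each class show the short boxes that define the classes. They are GENCODE release 29 transcripts, matched by Ensembl ID, which gave a sequence for 199 members, of which 191 had the length given in the files. Capitals mark ATGATGA or GTGATGA (box C) in the first 20 bases and the last CTGA (box D) in the last 15 for SNORD genes, and the last ACA in the last 8 bases for SNORA and SCARNA genes.
SNORA73B: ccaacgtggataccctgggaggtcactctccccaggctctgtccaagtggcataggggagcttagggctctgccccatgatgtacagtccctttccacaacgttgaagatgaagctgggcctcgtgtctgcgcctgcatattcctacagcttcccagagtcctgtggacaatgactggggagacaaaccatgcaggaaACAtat
SNORD17: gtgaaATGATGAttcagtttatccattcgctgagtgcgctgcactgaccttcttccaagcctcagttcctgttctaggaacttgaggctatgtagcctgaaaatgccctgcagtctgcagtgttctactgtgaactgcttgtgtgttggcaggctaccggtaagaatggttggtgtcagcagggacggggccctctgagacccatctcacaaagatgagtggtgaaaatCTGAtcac
SCARNA21: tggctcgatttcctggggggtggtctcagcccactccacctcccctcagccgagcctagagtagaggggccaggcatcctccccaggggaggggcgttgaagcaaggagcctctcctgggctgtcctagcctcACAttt
On the GRCh37 build of the files, SNORA73B lies at chr1:28835071-28835274 in SNHG3, SNORD17 at chr20:17943353-17943589 on the minus strand in SNX5, and SCARNA21 at chr17:7809440-7809578 in CHD3. Box C was found in 77 of 104 SNORD sequences, 0 of 71 SNORA sequences and 4 of 16 SCARNA sequences (25.0%), against 0.365% of all 206694 GENCODE transcripts searched in the same window. Box D was found in 99 SNORD (95.2%), 2 SNORA (2.82%) and 5 SCARNA sequences (31.2%), against 7.19% of all transcripts. ACA was found in 10 SNORD (9.62%), 68 SNORA (95.8%) and 11 SCARNA sequences (68.8%), against 11.1% of all transcripts. Only the given strand was searched. A CTGA followed by CA also holds an ACA, so these motifs can overlap.

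A total of 181 members lay within another gene on the same strand, 110 of them in 91 protein-coding genes. SNHG14, the long RNA of the Prader-Willi region, held 20 members, the unnamed gene ENSG00000271417 held 12 and MEG8 held 10. The remaining 19 members had no such gene. Since most members lie within another gene, read pairs from the unspliced host and from the mature small RNA cannot be told apart in these counts.

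The libraries held 8866994 to 57937653 assigned pairs. The overexpressed ABCC1 insert had 51035 to 594404 counts in the 9 ABCC1(WT) libraries and 0 to 15 in the 9 Puro libraries. Reads on 325 olfactory receptor genes, used here as a measure of background, stood at 0.00340 to 0.00383 CPM per kb (CPM, counts scaled to library size by TMM, divided by length) in RNA1 Puro and 0.00206 to 0.00251 in RNA1 ABCC1(WT), 0.634 to 0.860 in RNA2 Puro and 0.191 to 0.556 in RNA2 ABCC1(WT), and the lines did not overlap in either experiment. They stood at 1.15 to 1.27 in RNA3 Puro and 0.934 to 1.11 in RNA3 ABCC1(WT), again without overlap. Without TMM scaling the lines of RNA3 overlapped, at 1.41 to 1.83 in Puro and 1.06 to 1.52 in ABCC1(WT). TMM factors over RNA2 and RNA3 together were 0.662 to 0.917 in RNA2 and 1.14 to 1.48 in RNA3, so a level set between those experiments depends on the scaling. The 12 adrenergic neuroblastoma markers summed to 12749 to 13830.2 CPM in RNA1 Puro and 10975 to 12546 in RNA1 ABCC1(WT), without overlap, and to 8096 to 11729.9 CPM in RNA2 and RNA3, where the lines overlapped. The summed level of 4 epithelial markers was at most 0.957 CPM in RNA1, at least 12.1 in RNA2 Puro, 3.79 to 8.90 in RNA2 ABCC1(WT), 28.2 to 40.5 in RNA3 Puro and 22.6 to 38.0 in RNA3 ABCC1(WT). That of 7 mesenchymal markers was 181 to 185 CPM in RNA1 Puro and 233 to 241 in RNA1 ABCC1(WT), and 119 to 143 in RNA3 Puro and 96.3 to 115 in RNA3 ABCC1(WT), without overlap in either, and 79.3 to 129.9 in RNA2, where the lines overlapped. KRT5, an epithelial marker, was at 0 in all RNA1 libraries. The part of this background in the results below was not tested.

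The members took 0.815 ± 0.195% of the assigned counts in RNA2 Puro and 0.721 ± 0.108% in RNA2 ABCC1(WT) (SD, n = 3 each). In RNA3 they took 0.504 ± 0.108% in Puro and 0.533 ± 0.0413% in ABCC1(WT). In both experiments the ranges of the lines overlapped. In bulk RNA, fewer cells of a type and less RNA per cell cannot be told apart. The lowest library, RNA3 Puro replicate 2, had 0.380% with a Wilson 95% interval of 0.377 to 0.384%. This interval covers counting error only and is far narrower than the spread between libraries.

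Few members held most of these counts. SNORA73B alone took 27.7% of the member counts in RNA2 and 24.6% in RNA3, the top 5 members took 61.1% and 59.5%, and the top 20 took 83.2% and 80.9%. The same 5 led in both experiments, namely SNORA73B, SNORD3A, SNORD17, SNORD15B and SCARNA10. SNORA73B, in ribosomal RNA processing, had 2900.4, 1920.5 and 3244 CPM in the RNA2 Puro libraries and 3482, 2947 and 2079.9 in the RNA2 ABCC1(WT) libraries. In RNA3 it had 888, 765 and 1011 CPM in Puro and 875, 1258 and 1141 in ABCC1(WT). In each experiment the values of the lines overlapped. SNHG3, the long RNA around SNORA73B, had 20457 to 32550 counts per library in RNA2 and 780 to 2011 in RNA1.

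Per length, SNORA73B was again highest, at 9196 CPM per kb over the 12 RNA2 and RNA3 libraries. The next SNORA genes were SNORA49 at 891, SNORA23 at 874, SNORA53 at 871 and SNORA22 at 636. Neighbours in this order from SNORA49 to SNORA53 differed by less than their spread between libraries. Among SNORD genes SNORD15B came first at 3682 CPM per kb, followed by SNORD17 at 2662, SNORD3A at 1008, SNORD8 at 451 and SNORD116-8 at 408. SNORD3A, the U3 RNA, is counted over a model of 699 bases, so its level per length depends on that model. Among SCARNA genes SCARNA21 led at 1731 CPM per kb, followed by SCARNA10 at 1499, SCARNA5 at 475, SCARNA6 at 350.2 and SCARNA22 at 220.1. SCARNA7 stood at 120.3, SCARNA13 at 58.3 and SCARNA9 at 28.4 CPM per kb. SNORA74A, the U19 RNA, stood at 319.

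Longer members had higher levels per length. The 96 members under 100 bases, all SNORD genes, had a median of 28.2 CPM per kb, the 82 from 100 to under 150 bases 41.1, and the 22 of 150 bases and over 181. Within the SNORD class the medians were 28.2 (n = 96), 88.9 (n = 9) and 169 (n = 5) in the same order, and among SCARNA genes 33.2 under 150 bases (n = 10) and 200.4 from 150 (n = 7). The kit's size selection and the level itself cannot be told apart here. Against the olfactory receptor genes, the median member stood 75.5 times higher in RNA2 and 20.2 times higher in RNA3. In RNA2, 2 members were under 5 times this background, and in RNA3 24 were.

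**Figure D1:**
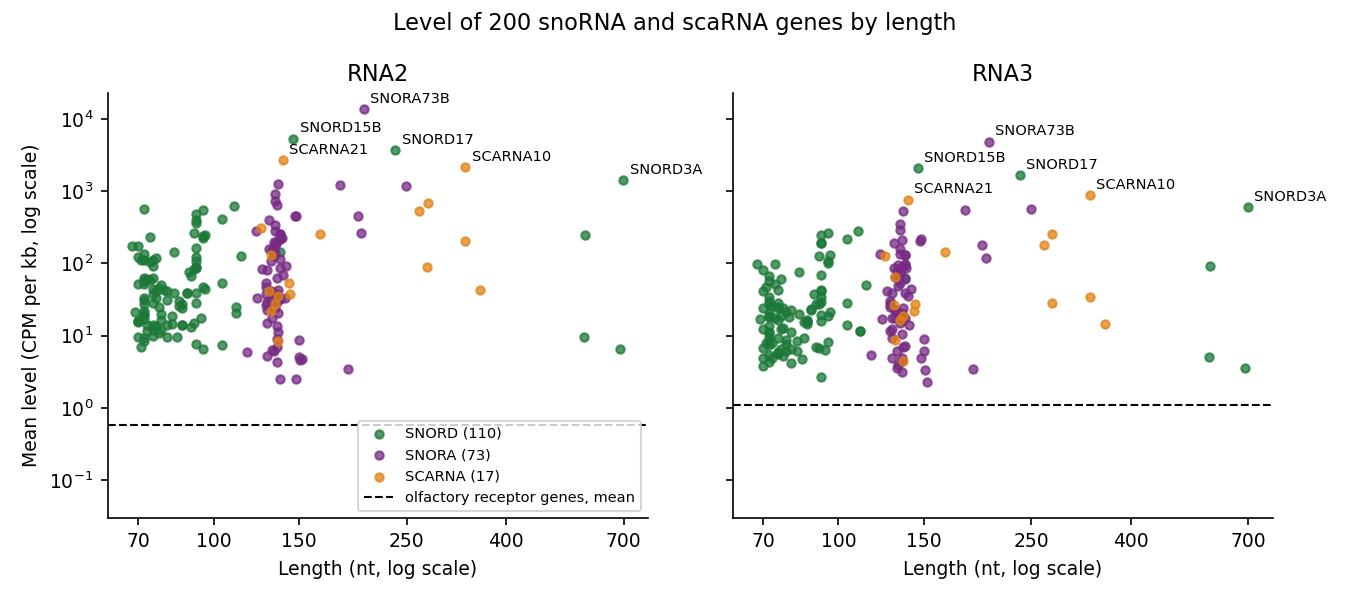
Mean level of the 200 members in CPM per kb (log scale) against length in nucleotides (log scale), in RNA2 and RNA3, with 1 point per gene coloured by class. The dashed line is the mean of 325 olfactory receptor genes. All points lie above the line, SNORA73B is the highest in both panels, and the short SNORD genes form the group at the left.

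Of the 493 rows, 85 lay wholly inside an exon of another gene, and all 85 had 0 counts in all 18 libraries. The counting settings in the file headers leave out read pairs that overlap exons of more than 1 gene, so these rows give no measurement of the RNA. They included 7 in TAF1D, 5 in EIF4A2, 4 in RPL13A and 4 in RPL4. Well-known RNAs were among them, such as SNORD118 (the U8 RNA), SNORD13 (U13) and SNORD14B, SNORD14C and SNORD14D. Of 25 rows that overlapped such an exon in part, 5 were members. Of the 383 rows free of other exons, 195 were members and 3 were at 0. SNORD14A, in RPS13, had 55.0 CPM per kb and SNORD14E, in HSPA8, 17.2, so this family was visible through 2 of its 5 copies. SNORD22, SNORA73A and SCARNA2 were not analysed here.

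Capture in RNA1 was near the limit of the counts. Over its 6 libraries the members summed to 2407 counts, with a median of 3 per member. There was no count for 42 members, 1 to 9 counts for 90 and at least 10 for 68. Where the 6 libraries show 0, up to 3 counts in all would be allowed by counting error. The summed level of the members was 9.81 CPM in RNA1, 7679 in RNA2 and 5184 in RNA3, without TMM scaling, so RNA2 exceeded RNA1 782.8 times and RNA3 528.5 times. The kits, instruments and cultures differed together, and their parts cannot be told apart.

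The order of the members in RNA1 was less like that in RNA2 than RNA2 was like RNA3. Spearman's rho of mean CPM over the 200 members was 0.434 between RNA1 and RNA2 and 0.97 between RNA2 and RNA3, a description over genes that share libraries. Among the 97 members with more than 3 RNA1 counts, RNA2 exceeded RNA1 by a median of 101 times, from 4.29 to 45050.0 times. SNORD3A marked the upper end, with 5 counts in RNA1 and 150626 in RNA2 and RNA3. SNORA73B had 47 counts in RNA1. The most counts in RNA1 fell on SNORA14B (213), SNORD104 (178), SNORA65 (130), SNORD108 (84) and SCARNA22 (71), which together held 28.1% of the RNA1 member counts. For SNORD104 the RNA2 level exceeded that of RNA1 8.85 times, for SNORD108 16.1 times and for SNORA14B 76.4 times. The sequences of the 2 members with the most RNA1 counts carry the boxes of their classes.
SNORA14B: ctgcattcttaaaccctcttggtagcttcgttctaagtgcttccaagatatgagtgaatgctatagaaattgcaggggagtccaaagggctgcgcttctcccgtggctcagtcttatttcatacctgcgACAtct
SNORD104: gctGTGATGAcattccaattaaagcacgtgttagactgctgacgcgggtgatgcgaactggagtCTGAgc
SNORA14B lies at chr1:235291118-235291252 on the minus strand in TOMM20, an import receptor of the mitochondrial outer membrane, and SNORD104 at chr17:62223443-62223512 in SNHG25.

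**Figure D2:**
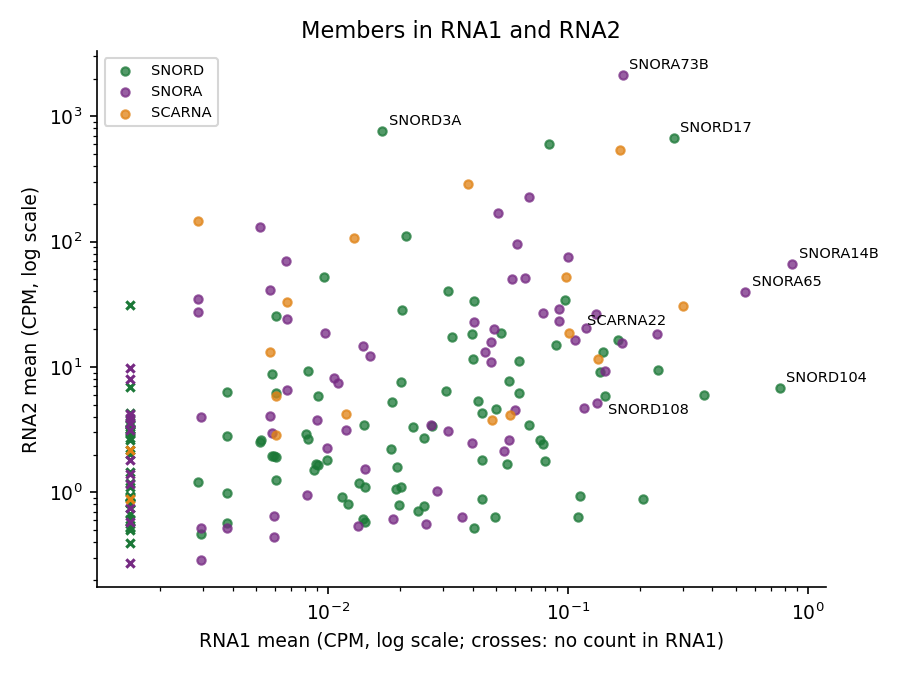
Mean CPM in RNA1 against mean CPM in RNA2, without TMM scaling, on log axes, with 1 point per member coloured by class. Crosses at the left are the 42 members with no count in RNA1. SNORA73B and SNORD3A have the highest RNA2 means, and SNORA14B, SNORD104 and SNORA65 lie farthest to the right.

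The multicopy SNORD families of chromosomes 14 and 15 were unevenly represented. In the Prader-Willi region, 18 of 25 SNORD116 copies were members and 1 of 44 SNORD115 copies. The SNORD116 copies summed to 47308 counts and the SNORD115 copies to 1142. The median SNORD116 copy stood 76.0 times above the olfactory receptor genes in RNA2 and 19.1 times in RNA3. The median SNORD115 copy stood 1.57 and 1.20 times above them, close to that background. Identity to the nearest copy was at least 98% for 26 SNORD115 copies, with a median of 20 counts. For the 18 copies under 98% the median was 19. Pairs that multi-mapped were left out, and their part in the difference between the families was not tested. Both families lie within SNHG14. The only SNORD115 member, SNORD115-5, had 183 counts. On chromosome 14, all 9 SNORD113 copies and 25 of 30 SNORD114 copies were members.

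Within SNORD116 the copies ranged from 19 counts (SNORD116-9) to 8193 (SNORD116-8), and the leading copy held 17.3% of the family. SNORD116-24 followed with 7059 counts and SNORD116-16 with 5712. Some copies share 1 sequence. SNORD116-3 and SNORD116-9 are identical and had 58 and 19 counts, SNORD116-5 and SNORD116-7 had 62 and 136, and SNORD116-17 and SNORD116-19 had 42 and 1197, again within identical pairs. Pairs that align equally well to several places were not counted, so identical copies give counts only through pairs that reach into the flanking sequence. Identity to the nearest copy was at least 98% for 11 copies, which had 19 to 5279 counts, and lower for 14 copies, which had 22 to 8193. The leading copies SNORD116-8 and SNORD116-24 are compared here with SNORD116-5 and SNORD116-17, which had few counts, with box C and box D in capitals.
SNORD116-8: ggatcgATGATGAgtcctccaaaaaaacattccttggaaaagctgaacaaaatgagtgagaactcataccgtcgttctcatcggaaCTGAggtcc
SNORD116-5: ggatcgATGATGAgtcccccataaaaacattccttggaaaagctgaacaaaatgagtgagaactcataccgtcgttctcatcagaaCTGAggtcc
SNORD116-24: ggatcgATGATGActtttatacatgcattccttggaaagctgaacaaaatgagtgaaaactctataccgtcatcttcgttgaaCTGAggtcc
SNORD116-17: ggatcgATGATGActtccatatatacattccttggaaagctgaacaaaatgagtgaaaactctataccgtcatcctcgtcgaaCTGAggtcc
In global alignments, SNORD116-8 and SNORD116-5 were identical in 92 of 95 columns (96.8%), while SNORD116-8 and SNORD116-24 were identical in 78 of 96 (81.2%). SNORD116-8 lies at chr15:25315579-25315673 and SNORD116-24 at chr15:25339184-25339275, both on the plus strand.

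In SNORD114, SNORD114-20 had 5050 of 16906 counts over RNA2 and RNA3 (29.9%), and its neighbour SNORD114-21 had 1039. Its mean was 40.0 CPM in RNA2, the highest of the family, against 9.80 for SNORD114-1, while in RNA3 it was 4.78 against 4.16. Both are 72 bases long and matched in 61 of 72 columns (84.7%).
SNORD114-20: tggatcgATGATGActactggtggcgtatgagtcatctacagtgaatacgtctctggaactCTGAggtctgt
SNORD114-21: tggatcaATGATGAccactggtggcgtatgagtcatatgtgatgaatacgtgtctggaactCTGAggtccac
They lie at chr14:101447341-101447412 and chr14:101448312-101448383 on the plus strand. SNORD114-20 had 53.6, 33.0 and 44.7 CPM in RNA2 Puro and 38.7, 38.5 and 31.5 in RNA2 ABCC1(WT). In RNA3 it had 4.21, 6.94 and 5.04 CPM in Puro and 2.59, 4.32 and 5.55 in ABCC1(WT). The lines overlapped in both experiments, and each RNA3 library lay below each RNA2 library, also as a share of the member counts.

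**Figure D3:**
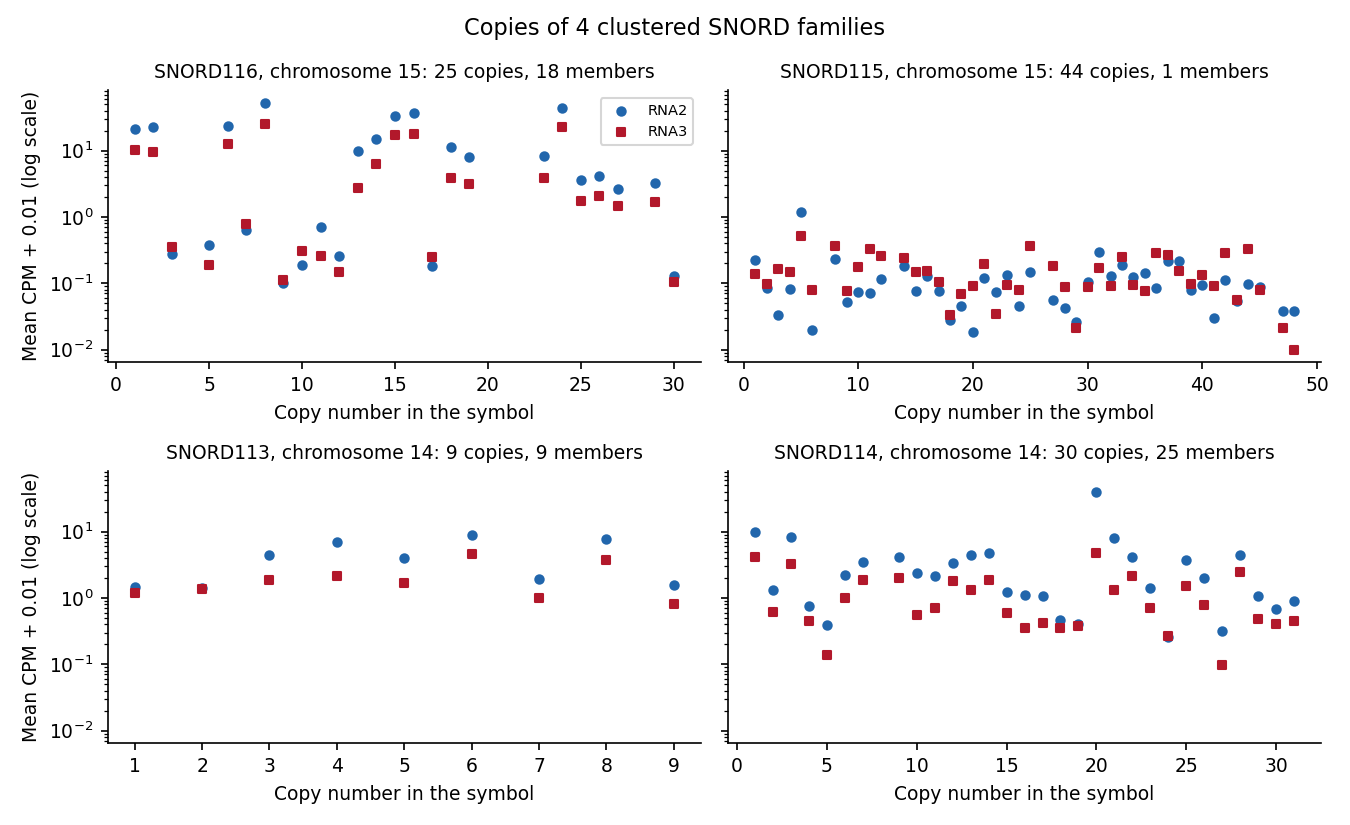
Mean CPM plus 0.01 (log scale) of each copy of SNORD116, SNORD115, SNORD113 and SNORD114 against the copy number in its symbol, for RNA2 (circles) and RNA3 (squares). Most SNORD115 copies lie near 0.1 CPM, SNORD116 copies split into high and low ones, and SNORD114-20 stands above its family in RNA2.

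RNA2 and RNA3 differed in scale factors, so the members were compared between them as shares of the member counts, without a test. Over the 200 members the median log2 ratio of RNA3 to RNA2 was 0.258. Among the 84 members with at least 1000 counts, 3 had a share lower at least 2-fold in RNA3 and none had one higher at least 2-fold. SNORD114-20 took 0.409 ± 0.0712% of member counts in RNA2 and 0.124 ± 0.0547% in RNA3 (SD, n = 6 each). SNORD114-21 took 0.0813 ± 0.00965% and 0.0333 ± 0.0128%. SCARNA7 took 0.688 ± 0.0928% and 0.285 ± 0.0468%. For each of these 3 the ranges of the experiments did not overlap. Another 15 members, each with fewer than 1000 counts, had shares at least 2-fold higher in RNA3, where the olfactory receptor background was also higher.

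In RNA2, no member passed the test of ABCC1(WT) against Puro. Of 34091 Ensembl features tested, 1.7% were called (1.25% higher and 0.458% lower) at an adjusted p of at most 0.05 (edgeR quasi-likelihood test, Benjamini-Hochberg over all features), while 0 of the 197 members tested were. At an unadjusted p under 0.05 there was 1 member, against 21.2% of all features. DESeq2 called 0 members as well, against 2557 of 34096 features. The median log2FC was -0.13 over the members tested and -0.19 over all features tested. Leaving out 1 library moved the members' median from -0.30 (without ABCC1(WT) replicate 1) to 0.02 (without Puro replicate 3) and 0.10 (without ABCC1(WT) replicate 3), so its sign rests on single libraries. With the olfactory receptor background as a covariate it was -0.55, against 0.08 over all features. On TMM-scaled CPM the lines did not overlap for 4 members higher and 4 lower in ABCC1(WT), against 14.6% and 15.6% of all features tested. Without TMM scaling, a setting added after the data were seen, these counts were 0 and 15, against 5.14% and 22.3%.

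The 5 members with the smallest p in RNA2 are given by value. A copy of SNORA71 (ENSG00000201393) at chr10:80127264-80127380, in LINC00595, had 1.45, 1.06 and 1.18 CPM in Puro and 0.1005, 0.179 and 0.166 in ABCC1(WT). The lines did not overlap, the log2FC was -3.03 (SE 0.90) and the adjusted p 0.0742 by edgeR. This copy had 135 counts in the 12 libraries, and the olfactory receptor background moved with it in RNA2, a part that was not tested. SCARNA6, a guide for spliceosomal RNA in ATG16L1, had 111, 99.97 and 152 CPM in Puro and 153, 175 and 140.0 in ABCC1(WT), and the lines overlapped. Its log2FC was 0.34 (SE 0.18) with an adjusted p of 0.277 by edgeR. SNORA75 (ENSG00000206885), in the nucleolin gene NCL, had a log2FC of -0.35 (SE 0.19) and SNORD67, in CKAP5, one of -0.86 (SE 0.49). SNORD114-20 had a log2FC of -0.30 (SE 0.17). The edgeR adjusted p of these 3 lay between 0.289 and 0.310. The design's exact permutation test of a single member cannot give a p below 0.1, which the SNORA71 copy reached.

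In RNA3, 2 of the 171 members tested were called, both higher in ABCC1(WT), against 2.8% of the 36509 features tested (2.03% called higher). They were SNORA84 and SNORA71A. The median log2FC was 0.22 over the members tested and -0.09 over all features, and 126 members had a positive and 45 a negative value. The members' median stood 0.32 above that of all features, and between 0.21 (without Puro replicate 2) and 0.43 (with background as a covariate) above it over all 13 alternatives. The median itself ran from 0.09 without Puro replicate 2 to 0.43. At an unadjusted p under 0.05 there were 23 members (13.5%), against 15.2% of all features. On TMM-scaled CPM, ABCC1(WT) lay wholly above Puro for 33 members and wholly below for 4, against 9.96% and 8.89% of all features. Without TMM scaling the counts were 2 above and 9 below, against 6.76% and 14.9%, so the direction of the count of members turned with the scaling, as did that of all features. Leaving out 1 library gave 0 calls without Puro replicate 2 or ABCC1(WT) replicate 2, where 2761 and 406 of all features were called. It gave 1 without Puro replicate 1 or 3 or ABCC1(WT) replicate 3 (477, 400 and 395 of all features). Without ABCC1(WT) replicate 1 it gave 3 (2049). These fits tested 38403 to 39214 features, and with every library kept 1022 of 36513 were called. DESeq2 called 1, SNORA71A, and gave SNORA84 no adjusted p. With background as a covariate 3 others were called, SNORD8, SNORA14B and SNORD116-16. With TMM scaling the olfactory receptor level was lower in ABCC1(WT) without overlap in RNA3, while without that scaling the lines overlapped. Its part in these values was not tested.

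SNORA84 is an H/ACA RNA at chr9:95054743-95054875 on the minus strand, in the isoleucyl-tRNA synthetase gene IARS1.
SNORA84: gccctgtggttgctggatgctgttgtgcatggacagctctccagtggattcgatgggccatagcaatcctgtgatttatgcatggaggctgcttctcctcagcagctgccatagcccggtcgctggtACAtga
It had 4.62, 4.47 and 4.57 CPM in RNA3 Puro and 6.54, 9.80 and 8.46 in RNA3 ABCC1(WT). Every ABCC1(WT) library lay above every Puro library, with 4.55 ± 0.0779 CPM (SD, n = 3) in Puro against 8.27 ± 1.64 CPM (SD, n = 3) in ABCC1(WT). The log2FC was 0.79 (SE 0.24) with an adjusted p of 0.0444 by edgeR. In RNA2 it had 19.3, 18.7 and 24.2 CPM in Puro and 26.8, 22.5 and 17.5 in ABCC1(WT), which overlapped. The call was lost without any 1 of the Puro replicates or without ABCC1(WT) replicate 2 or 3, with a log2FC of 0.67 to 0.85 and a highest edgeR adjusted p of 0.284. By edgeR it was also lost with TMM factors from genes that RNA1 captured (log2FC 0.70, adjusted p = 0.133). The same held with the olfactory receptor background as a covariate (log2FC 0.56, edgeR adjusted p = 0.562). As fitted, without TMM scaling, that background was 1.41 to 1.83 CPM per kb in RNA3 Puro and 1.06 to 1.52 in RNA3 ABCC1(WT). These ranges overlap only in part, so the covariate and the line can be told apart only in part.

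SNORA71A belongs to a group of 4 H/ACA RNAs in introns of SNHG17 on chromosome 20. Those with the length given in the files are shown to compare the copies.
SNORA71A: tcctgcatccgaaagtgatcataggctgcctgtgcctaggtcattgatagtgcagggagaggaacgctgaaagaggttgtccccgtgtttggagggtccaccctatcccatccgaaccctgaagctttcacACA
SNORA71C: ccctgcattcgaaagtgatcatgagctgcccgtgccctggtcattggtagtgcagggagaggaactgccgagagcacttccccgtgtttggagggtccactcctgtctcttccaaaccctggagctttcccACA
SNORA71D: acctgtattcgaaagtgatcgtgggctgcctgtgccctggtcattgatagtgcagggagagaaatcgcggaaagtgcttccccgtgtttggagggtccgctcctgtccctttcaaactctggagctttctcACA
SNORA71A matched SNORA71C in 113 of 136 aligned columns and SNORA71D likewise (83.1%), and it lies at chr20:37055952-37056085 on the minus strand. SNORA71A had 31.2, 22.3 and 36.7 CPM in RNA3 Puro and 38.0, 57.7 and 43.1 in RNA3 ABCC1(WT), with no overlap. Its log2FC was 0.56 (SE 0.17) and its adjusted p 0.0493 by edgeR. In RNA2 it had 102, 69.5 and 119 CPM in Puro and 120.5, 99.9 and 70.8 in ABCC1(WT), which overlapped. The call was lost without Puro replicate 1 or 2 or ABCC1(WT) replicate 2 or 3, and under 3 of the other settings. Its log2FC in these was 0.39 without Puro replicate 2 or ABCC1(WT) replicate 2, 0.45 with TMM factors from genes that RNA1 captured, and 0.57 to 0.64 in the other 4. The adjusted p, by edgeR in all but the DESeq2 fit, ran from 0.00423 to 0.471 over 13 alternatives.

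The other copies in SNHG17 were not called in RNA3. SNORA71B had 12.6, 8.87 and 9.76 CPM in Puro and 13.7, 17.5 and 14.4 in ABCC1(WT), without overlap, and a log2FC of 0.48 (SE 0.18) with an edgeR adjusted p of 0.143. SNORA71D had 14.5, 11.6 and 19.1 CPM and 21.5, 23.5 and 18.8, which overlapped, and a log2FC of 0.44 (SE 0.17). SNORA71C had 6.25, 5.57 and 6.93 CPM and 7.77, 9.59 and 6.61, which also overlapped, and a log2FC of 0.30 (SE 0.23). The 4 copies share an intron-bearing host and are not independent. SNHG17 itself was higher in ABCC1(WT) in RNA1, with a log2FC of 0.43 (SE 0.07) and an edgeR adjusted p of 0.000957, and in the joint fit of RNA2 and RNA3, at 0.51 (SE 0.12) with 0.00542. The joint value of SNHG17 lost its call with TMM factors from genes that RNA1 captured and with background as a covariate. In RNA2 and RNA3 alone it did not pass, with edgeR adjusted p of 0.131 and 0.116.

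Next by p in RNA3 were SNORD8 and SNORA14B. SNORD8, a box C/D RNA in CHD8, had 30.1, 18.4 and 26.8 CPM in Puro and 38.1, 46.0 and 26.8 in ABCC1(WT), which overlapped. Its log2FC was 0.50 (SE 0.17) with an edgeR adjusted p of 0.0987. SNORA14B had 27.1, 17.4 and 24.4 CPM in Puro and 33.0, 37.5 and 28.2 in ABCC1(WT), which did not overlap. Its log2FC was 0.46 (SE 0.17) with an edgeR adjusted p of 0.124. SNORD8 passed under 5 alternatives and SNORA14B under 3, including the replicate block.

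**Figure D4:**
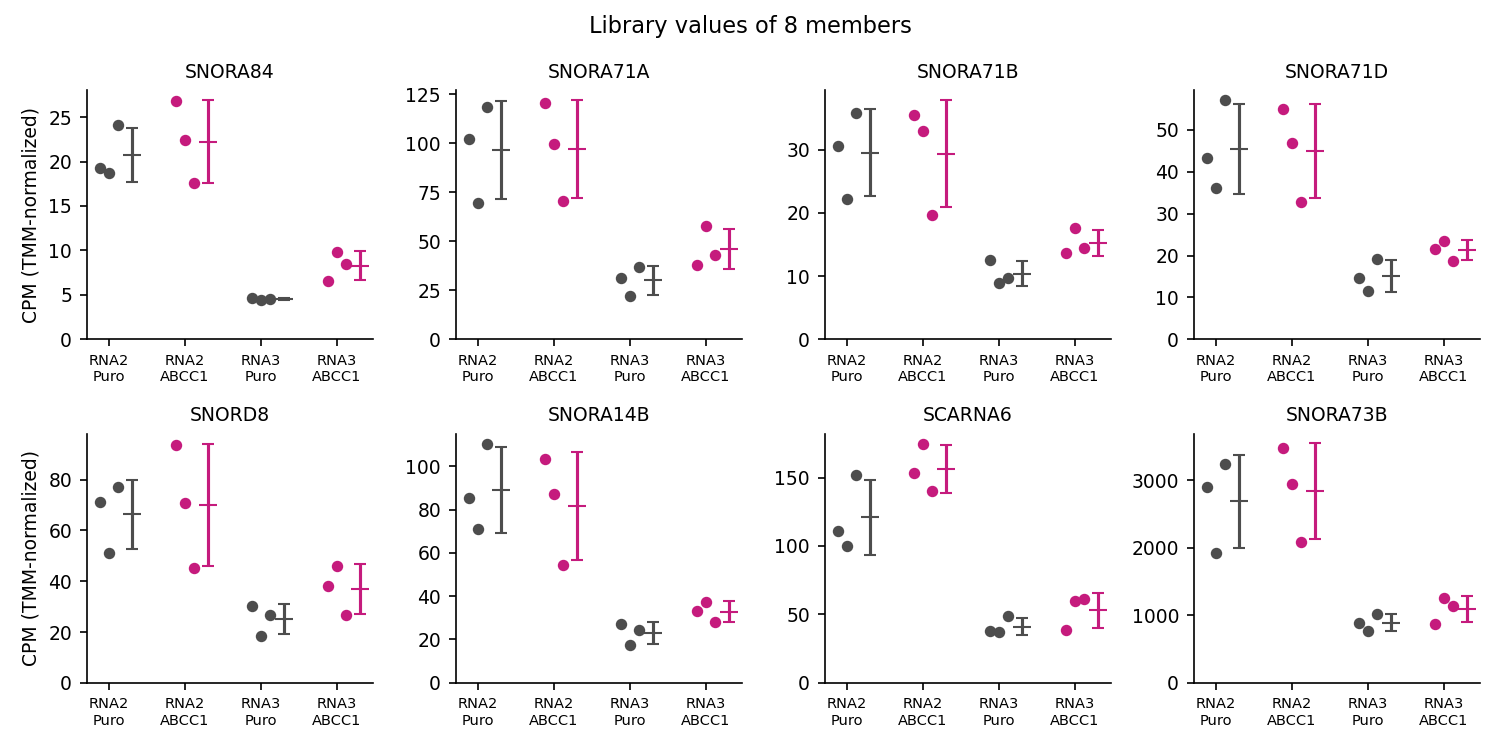
TMM-normalized CPM (linear axis from 0) of 8 members in each library of RNA2 and RNA3, Puro in grey and ABCC1(WT) in pink, with mean and SD beside the points. The lines do not overlap for SNORA84, SNORA71A, SNORA71B and SNORA14B in RNA3, and overlap for all 8 in RNA2.

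**Figure D5:**
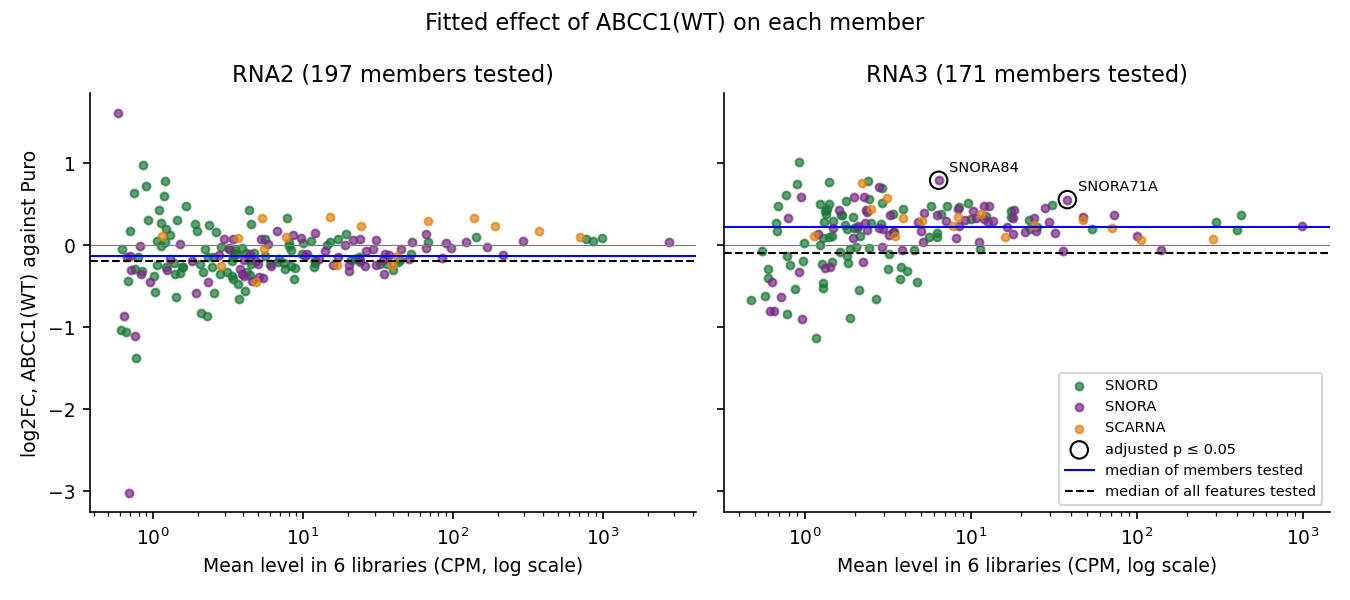
Fitted log2FC of ABCC1(WT) against Puro for each member tested against its mean CPM (log scale), in RNA2 (197 members) and RNA3 (171). Circles mark SNORA84 and SNORA71A, the solid line is the median of the members and the dashed line that of all features tested. The members' median lies at -0.13 in RNA2 and 0.22 in RNA3, and values scatter most at low CPM.

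The joint fit of the 12 total RNA libraries, which averages the effects in RNA2 and RNA3, called 1 of 200 members, against 10.9% of 41448 features (7.16% called higher and 3.73% lower). At an unadjusted p under 0.05 there were 13 members (6.5%), against 26.9% of all features. The member called was SNORA84, with a log2FC of 0.48 (SE 0.15) and an adjusted p of 0.0280 by edgeR. The call was lost under 12 of 19 alternatives. The number of members called ran from 0 to 7 over the alternatives, with 7 higher by DESeq2, which called 6305 of all 41453 features, and 2, both lower, with TMM factors from genes that RNA1 captured, which called 4694. In that scaling the median log2FC was -0.13 over the members and -0.39 over all features, against 0.09 and -0.19 before. Relative to all features, the members' median was 0.27 higher in the joint fit and 0.26 higher in that scaling, but 0.25 lower, at -0.17 against 0.07, with background as a covariate. It was 0.05 higher with a minimum of 10 counts in every library, and with 1 library left out from 0.09 (RNA2 ABCC1(WT) replicate 1) to 0.44 (RNA2 ABCC1(WT) replicate 3) higher. Leaving out 1 library gave 7 calls without RNA2 ABCC1(WT) replicate 3, where 7015 features in all were called, and 5 without RNA2 Puro replicate 3 (3664 in all). It gave 4 without RNA3 ABCC1(WT) replicate 1 (4687) and 1 without RNA3 Puro replicate 2 (5287). Of the 7 and of the 4, 1 each was lower in ABCC1(WT), and all others were higher. Each of the other 8 libraries left out gave 0, with 2261 to 4171 features called in all.

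The difference of the ABCC1(WT) effect between RNA3 and RNA2 was tested as an interaction. No member passed, against 3 of 41448 features called (0.00724%, with 0.00483% higher and 0.00241% lower in RNA3), and 7 members (3.5%) had an unadjusted p under 0.05, against 6.35% of all features. DESeq2 called no member either, against 4 of 41453 features. Of the 200 members, 51 had a lower fitted log2FC in RNA3 than in RNA2 and the rest a higher one. The median difference was 0.34 over the members and 0.18 over all features tested. The effects on SNORA84 and SNORA71A were not shown to differ between the experiments.

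In RNA1 only 5 members had enough counts for the test, SNORD108, SNORD17, SNORD104, SNORA14B and SNORA65. By edgeR none was called, against 37.6% of 16995 features, and SNORD108 alone had an unadjusted p under 0.05, against 46.6% of all features. ABCC1(WT) lay wholly below Puro for 1 of the 5, against 25.7% of all features. SNORD108 lies in the Prader-Willi region and had 84 counts in the 6 libraries. DESeq2 called none. Without the filter on low counts 158 members were tested and 2 were called, both lower in ABCC1(WT), while 7167 of 35737 features were called in either direction in that fit. With the filter 19.7% of all features were called lower. These were SNORA66 with 12 counts and SNORD108.

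The genes for proteins that build and carry these particles were counted in the same fits. Of 24 genes for snoRNP core and assembly factors, 6 were called higher and 1 lower in RNA1, against 17.9% of all features called higher and 19.7% lower. There was 1 called higher in RNA2 (1.25% of all features), 2 in RNA3 (2.03%) and 9 in the joint fit (7.16%), and none lower in these. PHAX, the adaptor that carries small nuclear and small nucleolar RNA precursors, was called higher in all 3 experiments. Its edgeR log2FC was 0.39 (SE 0.07) in RNA1 with an adjusted p of 0.00146, 0.68 (SE 0.18) in RNA2 with 0.0484 and 1.15 (SE 0.17) in RNA3 with 1.62e-06. In RNA3 it had 387, 564 and 328 counts in Puro and 905, 1159 and 1102 in ABCC1(WT), without overlap, or 30.3 ± 7.34 and 70.3 ± 10.6 CPM (SD, n = 3 each). The RNA2 call was lost without any 1 of its 6 libraries and with TMM factors from genes that RNA1 captured, and the RNA3 call under none of 13 alternatives. NUFIP1, a snoRNP assembly factor, was called higher in RNA1 at 0.28 (SE 0.06) and in RNA3 at 0.61 (SE 0.17), where the call was lost without Puro replicate 1 or 3 or ABCC1(WT) replicate 2 or 3 and with TMM factors from genes that RNA1 captured.

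Of 20 long noncoding hosts, 10 were called higher and 2 lower in RNA1, against 17.9% and 19.7% of all features. There was 1 called higher in RNA2 (1.25% of all features), 2 in RNA3 (2.03%) and 5 in the joint fit (7.16%). The 2 lower ones hold members of the large families, MEG8 with a log2FC of -0.62 (SE 0.11) and SNHG14 with -0.24 (SE 0.05), at edgeR adjusted p of 0.00123 and 0.00430. Neither was called in RNA2 or RNA3, with edgeR adjusted p of at least 0.726. SNHG15 was higher in RNA1 at 0.57 (SE 0.05) and in RNA3 at 0.75 (SE 0.17), the latter lost without ABCC1(WT) replicate 2. SNHG10, the host of SCARNA13, was higher in RNA1 at 0.27 (SE 0.09) and in RNA3 at 1.02 (SE 0.20), with edgeR adjusted p of 0.0441 and 0.000516. Its RNA1 call was lost without Puro replicate 2 or 3 or ABCC1(WT) replicate 1 or 2, by DESeq2 and with a minimum of 10 counts in every library. EPB41L4A-AS1 was higher in RNA1 at 0.37 (SE 0.06) and in RNA2 at 0.65 (SE 0.16), where the call was lost without any 1 library except ABCC1(WT) replicate 3 and with TMM factors from genes that RNA1 captured.

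Of 91 protein-coding hosts, 14 were called higher and 23 lower in RNA1, where 37.6% of all features were called. There was 1 called higher in RNA2 (1.25% of all features), 4 in RNA3 (2.03%) and 22 in the joint fit (7.16%), where 1 was lower. EIF5, a translation initiation factor, was called higher in all 3 experiments. Its log2FC was 0.47 (SE 0.05) in RNA1, 0.77 (SE 0.17) in RNA2 and 1.10 (SE 0.19) in RNA3, with edgeR adjusted p of 7.99e-05, 0.0267 and 5.49e-05. The RNA2 call was lost without Puro replicate 2 or 3 or ABCC1(WT) replicate 1 or 2, and with TMM factors from genes that RNA1 captured. SNORA28, in an intron of EIF5, had 5.78, 3.85 and 5.35 CPM in RNA3 Puro and 3.89, 7.81 and 4.43 in RNA3 ABCC1(WT). The lines overlapped for SNORA28 while EIF5 had 946 to 1696 counts in Puro and 2702 to 3180 in ABCC1(WT) libraries of RNA3. Across genes, Pearson's r between the log2FC of a member and of its host was 0.173 over 181 members in RNA2 and 0.322 over 156 in RNA3, and Spearman's rho 0.0406 and 0.315. These points share libraries and several share a host, so they are a description only.

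Of 17 other small structured RNAs found, 13 were tested in RNA3 and 2 were called higher there, against 2.03% of all features. In RNA2 0 of 13 were called by edgeR, against 1.7% of all features, and in the joint fit 1 of 14 was higher, RNU1-1, against 7.16%. The 2 in RNA3 were RNU1-1, a U1 spliceosomal RNA gene, with a log2FC of 1.14 (SE 0.18) and an edgeR adjusted p of 4.02e-06, and RNY3, a Y RNA, with 0.57 (SE 0.17) and 0.0369. The RNY3 call was lost without Puro replicate 3 or ABCC1(WT) replicate 2 or 3. RNU1-1 has near-identical copies in the genome, so its count is uncertain.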

How the data were processed

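Total RNA (RNA2, RNA3) and mRNA (RNA1) libraries of BE(2)-m17 cells were sequenced as read pairs. The authors aligned them with STAR 2.7.3a to GRCh37 and deposited raw counts per gene from featureCounts (Subread 2.0.0) over Ensembl 74 exons. Pairs were counted without strand, and pairs that multi-mapped or overlapped 2 genes were left out. The labels name a SMARTer protocol for RNA1 where the paper names TruSeq. Members and gene lists were chosen with earlier results of these data known. ABCC1(WT) was tested against Puro within each experiment by edgeR 4.0.16 (R 4.3.3): TMM factors, filterByExpr with a minimum of 10 counts, robust quasi-likelihood test, and Benjamini-Hochberg adjustment over all features tested. RNA2 and RNA3 were also fitted jointly, for their mean effect and its difference. Single members were compared by exact two-sided permutation tests. CPM values used 1 set of TMM factors for RNA2 and RNA3. Named members were, by rule, the 5 with the highest CPM per kb in each class, those called or otherwise with the 5 smallest p in RNA2 and RNA3, the 5 with most RNA1 counts, RNAs with a textbook role, and the 3 on each side of the count minimum. Other copies, hosts and list genes were chosen after their values were seen. DESeq2 1.42.0 and other scalings, filters, covariates and left-out libraries were alternatives. Scripts were tested on simulated data. Precision follows depth: the smallest library had 8866994 assigned pairs and the largest 57937653, and intervals cover counting error only. Some further markers and sequences are not reported here.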

Additional observations from a re-analysis of the deposited data

How the results depend on the processing

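The counts of members called depended on the settings. In RNA3, 2 were called, with 1022 of 36513 features in all. DESeq2 gave 1 (1562 features) and gave SNORA84 no adjusted p. TMM factors from genes that RNA1 captured gave 0 (1647) and no filter on low counts 1 (908 of 54869). A minimum of 10 counts in every library gave 4 (1725 of 27621). The background covariate gave 3 (703), none of them the 2, and leaving out 1 library 0 to 3 (395 to 2761). In RNA1 no filter gave 2 in place of 0. In the joint fit 1 was called, with 4517 of 41453 features in all. DESeq2 gave 7 (6305 features), RLE size factors 5 (5065) and TMM factors from genes that RNA1 captured 2 (4694). No filter gave 2 (4658 of 55225), the background covariate 0 (333) and leaving out 1 library 0 to 7 (2261 to 7015). In RNA2 and for the difference between experiments the count was 0 under every alternative run. The causes were not tested. Correlations between the deviations of same-numbered libraries were -0.138 to 0.0949 over the 3 experiments. With 3 libraries per line, such values cannot show whether the numbers pair the samples. With a replicate block 4 members were called in RNA3, with 1887 of 36513 features in all, and 0 in the joint fit, with 3860 of 41453. The block ended the RNA2 calls of PHAX (log2FC 0.69 against 0.68), EIF5 (0.77 against 0.77) and EPB41L4A-AS1 (0.65 against 0.65). It also ended the RNA1 call of SNHG10 (0.28 against 0.27) and the joint call of SNORA84 (0.47 against 0.48). Over 37 named values, some of them never called, and 488 values under alternatives, 100 lost the call, 8 gained it and 0 reversed. With background as a covariate, which left 125 of 6386 calls in RNA1, all calls named in RNA1 were lost, though log2FC values such as PHAX 0.35 against 0.39, SNHG15 0.62 against 0.57 and MEG8 -1.01 against -0.62 stayed as large or nearly so; NUFIP1 (0.07 against 0.28) and SNHG10 (0.08 against 0.27) did not. It also ended the RNA2 calls of PHAX (0.63 against 0.68), EIF5 (0.74 against 0.77) and EPB41L4A-AS1 (0.53 against 0.65) and the RNA3 calls of NUFIP1 (0.36 against 0.61) and SNHG15 (0.57 against 0.75). RNA3 had the smallest libraries. RNA1, with the deepest library, had fewer than 10 counts on all but 68 members.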
